A study of Mus musculus with 6 samples.

Results

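Hepatocyte gene expression is held in place by a small set of transcription factors, and 9 of them were followed here in fibrotic mouse liver. They were Hnf4a, Cebpa, Foxa1, Foxa2 and Foxa3, and the nuclear receptor genes Nr1h4, Nr0b2, Nr1i2 and Nr1i3. They were chosen by symbol from the count table, which held all 9 of them among 41388 Ensembl gene identifiers, and all 9 were among the 15939 genes that passed the filter on low counts. Each of the 9 had between 178 and 16005 counts per library.

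The compared livers came from BALB/c mice in which carbon tetrachloride (CCl4), a toxin that hepatocytes activate, was used for 5 weeks to produce fibrosis. The AL/NP group of 3 libraries received nanoparticles loaded with the bisphosphonate alendronate at 4 mg/kg, injected 2 times per week over the last 2 weeks. The control group of 3 libraries was fibrotic in the same way and is labelled untreated. The AL/NP libraries are titled as the high treatment, and pieces of each liver lobe were taken. The samples' treatment text is the same for both groups although the controls are labelled untreated, and no group with empty particles is analysed here, so drug, carrier and injection cannot be told apart. Replicates are numbered without a statement that each is a separate animal, so p-values measure the spread between these samples, which may be technical.

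HNF4A, the C/EBP proteins and the FOXA proteins bind enhancers and promoters of liver genes together, and FOXA proteins can bind DNA in closed chromatin. Nr1h4 encodes FXR, the bile acid receptor, which induces Nr0b2. Nr0b2 encodes SHP, a receptor without a DNA-binding domain that acts as a repressor, among others of bile acid synthesis. Nr1i2 encodes PXR and Nr1i3 encodes CAR, sensors of drugs and other foreign compounds that pair with RXR proteins and induce cytochrome P450 genes.

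None of the 9 genes passed an adjusted p of 0.05 in the edgeR quasi-likelihood test over all 15939 genes tested, where 0.0816% of genes were called (0.0627% higher and 0.0188% lower). At an unadjusted p under 0.05 there were 3 of the 9, all lower with AL/NP (Nr1i3, Nr0b2 and Nr1i2), against 19.6% of all genes (9.37% higher and 10.3% lower). DESeq2 called Nr1i3 and Nr0b2, both lower, where it called 5.07% of all genes (2.59% higher and 2.48% lower). The AL/NP and control values did not overlap in 5 of the 9, 4 lower (Nr1i3, Nr0b2, Nr1i2 and Nr1h4) and 1 higher (Foxa3). Over all genes tested, 29.5% did not overlap, 15% lower and 14.5% higher. The median log2 fold change of the 9, AL/NP over control, was -0.50, with 7 of 9 below 0; the median of all genes tested was -0.00025, with 50% below 0. That median of the 9 was -0.17 when AL/NP replicate 1 was left out, and -0.21 when control replicate 3 was. It was -0.29 when libraries were scaled by their totals alone, where the median of all genes was 0.13 and 2 of the 9 did not overlap. Under that scaling the share of all genes without overlap was not counted.

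Printed here are the promoters of 3 of the 5 genes whose groups did not overlap. They are those of the gene with the lowest p-value and of the gene next to it. Foxa3 was added as the only gene of the 9 whose AL/NP values all lay above the controls. Each window runs from 250 bases before to 50 bases after the RefSeq start site (GRCm38.p6), 5′ to 3′ on the gene's strand, and capitals mark letters that matched a searched motif.
Nr1i3, chr1:171213720-171214019, plus strand: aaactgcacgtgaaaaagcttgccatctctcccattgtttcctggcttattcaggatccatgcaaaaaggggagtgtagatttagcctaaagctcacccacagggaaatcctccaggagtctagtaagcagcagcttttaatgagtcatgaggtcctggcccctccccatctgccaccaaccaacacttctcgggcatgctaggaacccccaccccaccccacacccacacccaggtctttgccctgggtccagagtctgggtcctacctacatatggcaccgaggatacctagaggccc
Nr0b2, chr4:133553126-133553425, plus strand: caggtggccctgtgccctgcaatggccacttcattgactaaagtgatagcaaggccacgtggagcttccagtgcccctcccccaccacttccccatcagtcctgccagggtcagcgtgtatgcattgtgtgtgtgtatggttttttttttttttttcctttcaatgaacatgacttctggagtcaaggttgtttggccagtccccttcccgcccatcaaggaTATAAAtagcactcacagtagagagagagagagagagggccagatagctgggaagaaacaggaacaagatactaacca
Foxa3, chr7:19023490-19023789, minus strand: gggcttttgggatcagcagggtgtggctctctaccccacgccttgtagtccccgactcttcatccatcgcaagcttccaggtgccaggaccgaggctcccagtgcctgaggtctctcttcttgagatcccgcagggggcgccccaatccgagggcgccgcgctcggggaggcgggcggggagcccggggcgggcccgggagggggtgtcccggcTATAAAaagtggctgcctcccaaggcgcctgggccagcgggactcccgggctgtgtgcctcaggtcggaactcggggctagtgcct
The motifs reported here, searched on both strands, include the nuclear receptor core AGGTCA, its extended form TCAAGGTCA, the core followed by any base and then TGACCT (an inverted repeat), the core followed by any base and then AGGTCA (a direct repeat), the HNF4 site CAAAGTCCA, the forkhead site TGTTTAC, the C/EBP site TTGCNNAA and the TATA box TATAAA. The extended and repeat forms contain the core, so their matches overlap its own. In the 3 printed windows the only match of these was TATAAA, at 28 bases before the start in Nr0b2 and 36 bases before the start in Foxa3. The windows of Nr1h4 and Nr1i2, whose groups did not overlap either, are not printed. Of these motifs, the Nr1h4 window held AGGTCA on the other strand, 214 bases before the start, and the Nr1i2 window held none. TATAAA occurred in 13.6% of all 32817 RefSeq promoter windows. The others named occurred in 16.3% (AGGTCA), 10.8% (TTGCNNAA), 3.65% (TGTTTAC), 0.475% (CAAAGTCCA), 0.424% (TCAAGGTCA), 0.0396% (direct repeat) and 0.00914% (inverted repeat) of windows. A match of letters describes the window and is not evidence of binding, and no match says only that these letters are not in it.

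All 6 libraries held between 30554483 and 39838428 counts, and the values below are CPM, counts scaled to library size, after edgeR's TMM adjustment of that size. Liver identity was plain, since Alb, the albumin gene, measured 36810 to 43310 CPM in AL/NP libraries and 44090 to 53590 CPM in controls. AL/NP replicate 1 and control replicate 3 held many of the extreme values of these 9 genes. AL/NP replicate 1 held the lowest of the 6 values for 7 of the 9 genes and the highest for Foxa3. Control replicate 3 held the highest value for 4 of the 9 and the lowest for Foxa3, and its TMM factor of 0.809 was the smallest, the rest being 0.937 to 1.13. Control replicate 1 held the highest value for 3 of the 9 (Hnf4a, Nr0b2 and Nr1i3). Mitochondrial genes took 11.96% to 17.0% of counts in AL/NP libraries and 16.2% to 26.7% in controls; their part in the results was not tested beyond leaving those genes out, which left Nr1i3 at -1.72 and Nr0b2 at -1.02. Leaving out a single library, these or another, moved some genes' printed fold changes by over 1.5 times or turned their sign. This is said beside each such gene, though not for every library that did so. Tomm40l was not refitted with libraries left out.

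**Figure D1:**
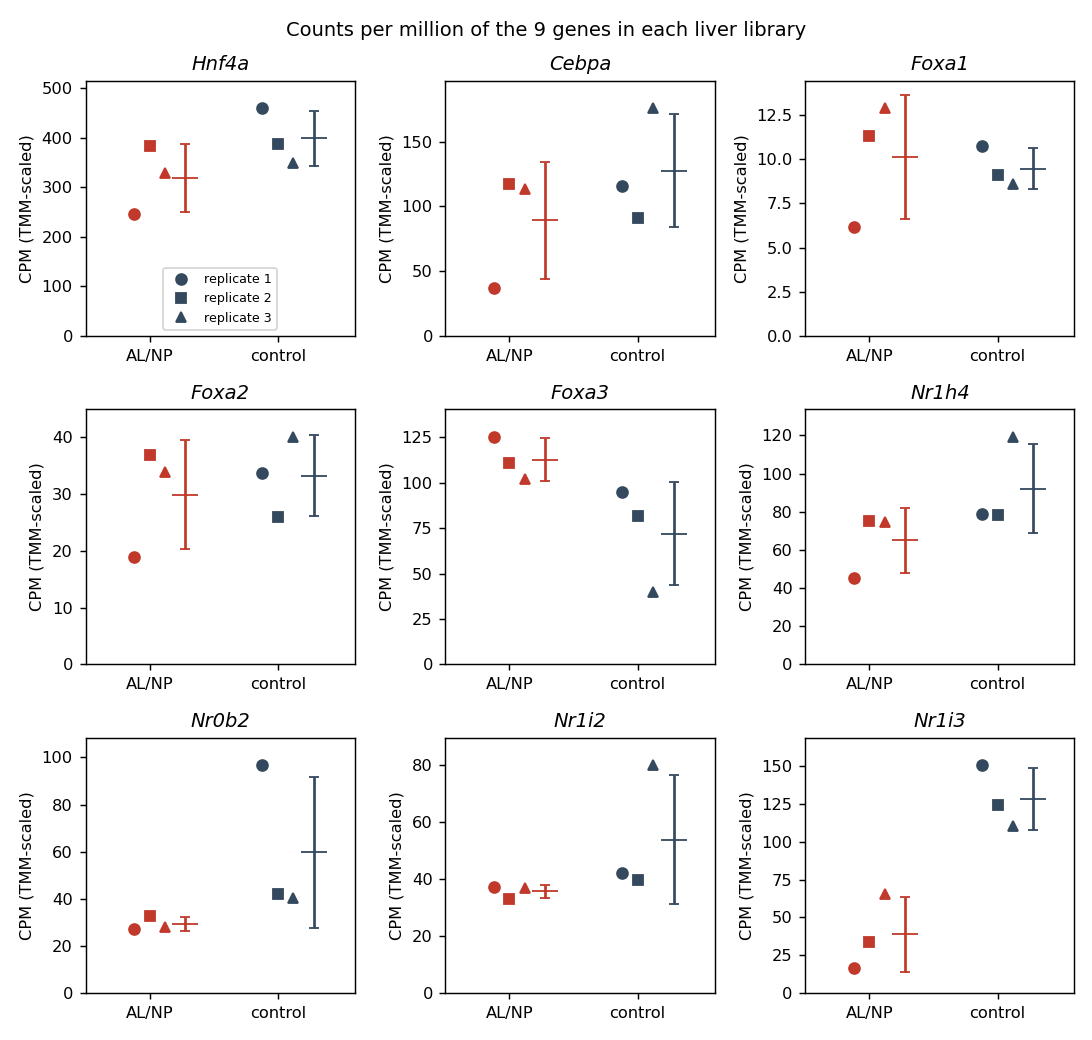
CPM of each gene (vertical axes start at 0) in the 3 AL/NP libraries (red, left) and the 3 control libraries (dark, right); symbols mark the replicate number and bars show mean ± SD. Nr1i3 separates the groups most, with 16.8 to 65.8 CPM in AL/NP libraries and 110.7 to 150.8 CPM in controls, and AL/NP replicate 1 sits lowest in 7 of the 9 panels.

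Of the 9 genes, Nr1i3 had the lowest p-value. Nr1i3 (CAR; ENSMUSG00000005677, chromosome 1, 171213970 to 171220701, plus strand) measured 16.8, 34.0 and 65.8 CPM in AL/NP replicates 1 to 3, against 150.8, 124 and 110.7 CPM in control replicates 1 to 3. The groups were far apart, and the AL/NP libraries spread more widely than the controls. The means were 38.9 ± 24.9 CPM in AL/NP livers and 128.6 ± 20.4 CPM in controls (SD, n = 3 each). Its log2 fold change was -1.73 (SE 0.43; unadjusted p = 0.00375 and adjusted p = 0.133, edgeR), a fitted level of 0.302 times the controls. With DESeq2 the adjusted p was 9.12e-04 at a log2 fold change of -1.73. Leaving out each library in turn gave log2 fold changes from -2.34 to -1.37, all on the same side of 0.

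Nr1i3 shares 3304 of its 4414 exon bases with Tomm40l, a gene of the mitochondrial protein import family on the opposite strand. The library kit marks strand, but the strand setting of the counting is not given in the sources used here, so reads from the shared stretch may have been assigned to either gene or dropped. Tomm40l measured 25.5 ± 2.37 CPM in AL/NP libraries and 25.9 ± 3.95 CPM in controls (SD, n = 3 each), a log2 fold change of -0.02 (SE 0.157; adjusted p = 0.947, edgeR). Tomm40l counts thus showed no difference of the size seen in Nr1i3 counts.

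Nr1i2 (PXR; ENSMUSG00000022809, chromosome 16, 38248323 to 38294824, minus strand) measured 37.05, 33.05 and 36.7 CPM in the AL/NP libraries, against 42.1, 39.4 and 79.7 CPM in controls. The groups did not overlap, but the gap between the nearest libraries was small and control replicate 3 lay far above the rest. The log2 fold change was -0.59 (SE 0.261; unadjusted p = 0.0498 and adjusted p = 0.254, edgeR), and it was -0.20 without control replicate 3 and -0.62 without AL/NP replicate 1. Nr1i2 thus did not pass over all genes, and its fold change shrank by over 1.5 times without that library.

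The bile acid receptor pair lay lower as well. Nr0b2 (SHP; ENSMUSG00000037583, chromosome 4, 133553376 to 133556536, plus strand) measured 27.2, 32.5 and 28.1 CPM in AL/NP libraries, against 96.7, 41.9 and 40.4 CPM in controls. All AL/NP values lay in a narrow band below every control, and control replicate 1 lay far above the rest. Its fold change was -1.03 on the log2 scale (SE 0.322; unadjusted p = 0.0114 and adjusted p = 0.166, edgeR; adjusted p = 0.0418, DESeq2). Without control replicate 1 it was -0.49, with an unadjusted p of 0.0181 and an adjusted p of 0.219 (edgeR), and over the other libraries left out in turn it lay between -1.25 and -0.98.

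Nr1h4 (FXR; ENSMUSG00000047638, chromosome 10, 89454234 to 89533585, minus strand) measured 45.5, 75.1 and 74.9 CPM in AL/NP libraries, against 78.8, 78.5 and 119 CPM in controls. The groups did not overlap, although 2 libraries of each group (replicates 2 and 3 with AL/NP, replicates 1 and 2 of the controls) lay close together. The log2 fold change was -0.50 (SE 0.246; unadjusted p = 0.0739 and adjusted p = 0.290, edgeR). Leaving out AL/NP replicate 1 gave -0.30, and leaving out control replicate 3 gave -0.27. The RefSeq window of Nr1h4 starts 26.9 kb inside the GENCODE gene, which has several start sites, and counts per gene do not separate them.

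Hnf4a, the nuclear receptor that keeps hepatocytes differentiated (ENSMUSG00000017950, chromosome 2, 163506808 to 163572910, plus strand), measured 246, 383 and 328.5 CPM in AL/NP libraries, against 459.6, 388 and 349 CPM in controls. The groups overlapped, since AL/NP replicate 2 lay above control replicate 3. The log2 fold change was -0.32 (SE 0.204; unadjusted p = 0.150 and adjusted p = 0.391, edgeR), and leaving out AL/NP replicate 1 gave -0.17, control replicate 1 -0.21 and control replicate 3 -0.41. RefSeq lists 2 start sites of Hnf4a, and the one used in adult liver lies 40.3 kb after the GENCODE gene start; counts per gene add both.

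Cebpa, a basic leucine zipper factor of energy metabolism that also restrains hepatocyte division (ENSMUSG00000034957, chromosome 7, 35119293 to 35121928, plus strand), measured 37.15, 117 and 114 CPM in AL/NP libraries, against 116, 90.8 and 176 CPM in controls. AL/NP replicates 2 and 3 lay inside the range of the controls, and AL/NP replicate 1 lay far below it. On the log2 scale the fold change was -0.51 (SE 0.424; unadjusted p = 0.261 and adjusted p = 0.512, edgeR). Leaving out AL/NP replicate 1 gave -0.14, and leaving out control replicate 3 gave -0.21. A difference between the groups in Cebpa was therefore not detectable beyond the spread of single libraries.

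The FOXA genes did not share a direction. Foxa3 (ENSMUSG00000040891, chromosome 7, 19013284 to 19023538, minus strand) measured 125, 111 and 102 CPM in AL/NP libraries, against 94.65, 81.45 and 39.95 CPM in controls. Every AL/NP library lay above every control, and control replicate 3 lay far below the other controls. AL/NP over control was at 0.65 on the log2 scale (SE 0.286; unadjusted p = 0.0513 and adjusted p = 0.256, edgeR). It was 0.35 without control replicate 3, with an unadjusted p of 0.0416 and an adjusted p of 0.251 (edgeR), 0.56 when AL/NP replicate 1 was left out, and 0.89 when control replicate 1 was.

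Foxa2 (ENSMUSG00000037025, chromosome 2, 148042877 to 148046969, minus strand) measured 18.9, 36.7 and 33.8 CPM in AL/NP libraries, against 33.6, 25.9 and 39.98 CPM in controls. Foxa1 (ENSMUSG00000035451, chromosome 12, 57540628 to 57546916, minus strand) measured 6.19, 11.3 and 12.9 CPM in AL/NP libraries, against 10.8, 9.09 and 8.57 CPM in controls. In both genes the controls lay within the range of the AL/NP libraries or overlapped it, and AL/NP replicate 1 was lowest. The log2 fold change was -0.15 for Foxa2 (SE 0.261; adjusted p = 0.765, edgeR) and 0.10 for Foxa1 (SE 0.262; adjusted p = 0.856, edgeR). The sign of both depended on single libraries: leaving out AL/NP replicate 1 put Foxa2 at 0.089, and leaving out AL/NP replicate 3 put Foxa1 at -0.11. Scaling by library totals alone put Foxa2 at 0.027, below the median of all genes under that scaling, 0.13.

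**Figure D2:**
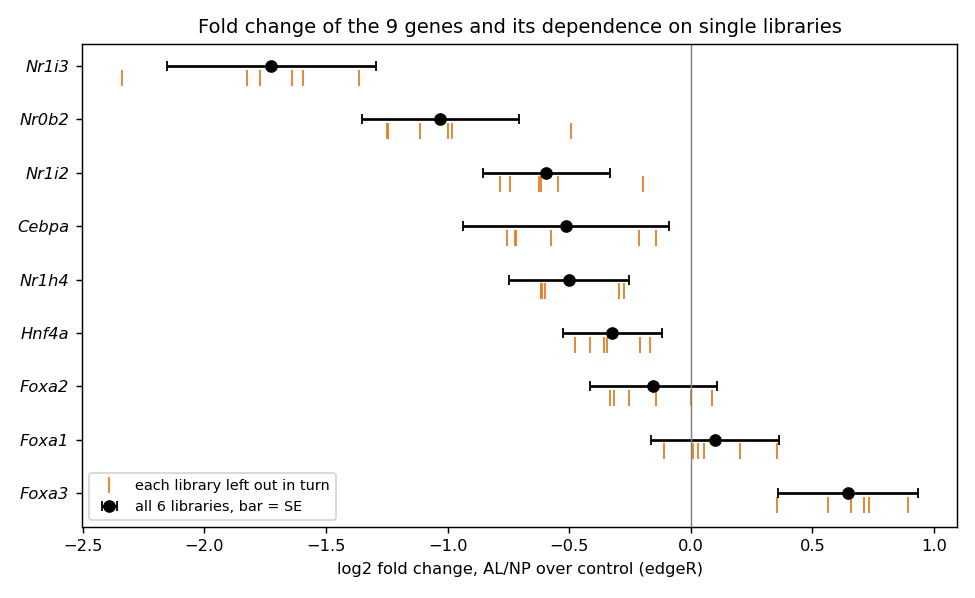
Log2 fold change of AL/NP over control for each gene (black points, all 6 libraries; bars are SE) and the same value with each library left out in turn (orange ticks). Nr1i3, Nr0b2, Nr1i2, Nr1h4, Hnf4a and Cebpa stay below 0 in every case, Foxa3 stays above 0, and Foxa1 and Foxa2 cross 0.

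Levels of different genes can be compared only per length, so CPM was also divided by the length of all annotated exons in kb. In AL/NP livers the order per kb was Hnf4a (66.1 ± 14.3), Foxa3 (55.3 ± 5.78), Cebpa (33.9 ± 17.2), Nr1h4 (28.3 ± 7.39), Nr0b2 (25.8 ± 2.496), Nr1i2 (13.9 ± 0.865), Foxa2 (12.6 ± 4.04), Nr1i3 (8.80 ± 5.63) and Foxa1 (3.05 ± 1.05), as CPM per kb with SD over 3 libraries. In control livers it was Hnf4a (82.7 ± 11.6), Nr0b2 (52.7 ± 28.3), Cebpa (48.4 ± 16.5), Nr1h4 (40.03 ± 10.2), Foxa3 (35.4 ± 14.01), Nr1i3 (29.1 ± 4.62), Nr1i2 (21.05 ± 8.83), Foxa2 (14 ± 2.97) and Foxa1 (2.85 ± 0.345). Hnf4a stood highest and Foxa1 lowest of the 9 in both groups. Most neighbours in these orders overlapped: among AL/NP livers only Foxa3 over Cebpa and Nr0b2 over Nr1i2 did not, and among controls only Foxa2 over Foxa1 did not. The per-kb level of Nr1i3 is uncertain because of the exons it shares with Tomm40l.

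The libraries of a group were not equally variable across the 9 genes. Within AL/NP livers the coefficient of variation of the per-kb level was 64.0% for Nr1i3 and 50.6% for Cebpa, and 9.66% for Nr0b2 and 6.20% for Nr1i2. Within controls it was 15.9% for Nr1i3 and 34.2% for Cebpa, and 53.7% for Nr0b2 and 42.0% for Nr1i2. The AL/NP libraries thus lay close together for Nr0b2 and Nr1i2, where a single control library lay high, and far apart for Nr1i3.

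Profiles over the 6 libraries were compared by the root mean square difference of log2 CPM after each gene was centred on its own mean. Among the 9 genes, Foxa2 and Nr1h4 were nearest to each other (0.210), followed by Foxa1 and Foxa2 (0.261), and Foxa3 and Nr1i3 were farthest apart (1.51). Over 12081 protein-coding genes with a mean of at least 1 CPM, the profile nearest to Nr1i3 was that of Slc16a12, a monocarboxylate transporter family gene, at 0.255; its own log2 fold change was -1.33. The nearest to Nr0b2 was Tnnc1, a troponin gene, at 0.137. For Foxa3 it was Synpo (0.0390), for Nr1h4 Dlc1 (0.0587), for Nr1i2 Slc15a4 (0.0665), for Hnf4a Cd276 (0.0602), for Cebpa Zfp641 (0.179), for Foxa2 Sh3bp1 (0.0860) and for Foxa1 Acot6 (0.0566). Nr1i3 had no protein-coding gene as close as the other 8 had. The measure is not scaled to a gene's spread, so a widely varying gene tends to have few near profiles. Relative to the control mean, Nr1i3 read from -2.92 (AL/NP replicate 1) to 0.24 (control replicate 1) in log2 CPM. These comparisons describe 6 points that share the same libraries.

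**Figure D3:**
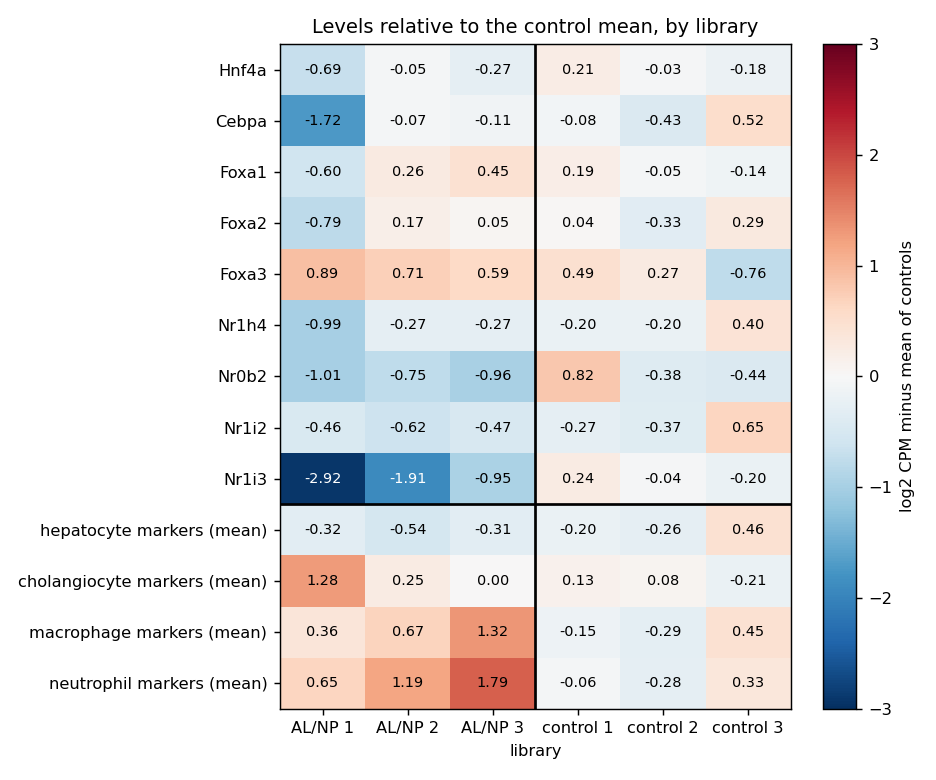
Log2 CPM of each gene minus its mean over the controls, in every library (columns), with the mean of hepatocyte, cholangiocyte, macrophage and neutrophil markers below the line; colour and printed value are the same quantity. Nr1i3 reads -2.92, -1.91 and -0.95 in AL/NP replicates 1 to 3, and hepatocyte markers read -0.32, -0.54 and -0.31.

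In bulk liver, fewer hepatocytes and less of an RNA per hepatocyte cannot be told apart, so marker genes of the cell types present were measured beside the 9 genes. Of 11 hepatocyte markers, 9 had a log2 fold change below 0, with a median of -0.47 and 0 called by edgeR. At an unadjusted p under 0.05 by edgeR there were 4, all lower, against 10.3% of all genes. The summed level of the 11 hepatocyte markers, most of it Alb, was 54190 to 63070 CPM in AL/NP libraries. In control replicates 1 to 3 it was 66820, 65390 and 86380 CPM, so control replicate 3 lay above the other controls. The mean log2 level of these markers, minus the control mean, was -0.32, -0.54 and -0.31 in AL/NP replicates 1 to 3. It was -0.20, -0.26 and 0.46 in control replicates 1 to 3. All 7 tested of 9 cholangiocyte markers lay above 0, with a median of 0.57. By edgeR 0 were called and 0 had an unadjusted p under 0.05. Their summed level was 436.8 to 853.7 CPM in AL/NP libraries and 394 to 577 CPM in controls. Almost all of that sum was Spp1, at 417 to 830.2 CPM in AL/NP libraries and 375.6 to 558.4 CPM in controls. The sum therefore describes that gene more than the list. The mean log2 level of the cholangiocyte markers, minus the control mean, was 1.28, 0.25 and 0.0026 in AL/NP replicates 1 to 3. In control replicates 1 to 3 it was 0.13, 0.083 and -0.21, so AL/NP replicate 1 stood out. Of 8 macrophage markers 7 lay above 0, with a median of 0.92 and a summed level of 366 to 583 CPM in AL/NP libraries, against 192 to 295 CPM in controls. All 6 neutrophil markers lay above 0, with a median of 1.39 and a summed level of 34.8 to 73.4 CPM in AL/NP libraries, against 18.8 to 33.6 CPM in controls. In both of these lists 5 markers had an unadjusted p under 0.05, all higher, against 9.37% of all genes, and edgeR called 0. The medians were -0.35 for stellate cell markers, 0.17 for endothelial markers and 0.26 for lymphocyte markers, and no marker of any list was at 0 in all libraries. The part of these shifts in the values of the 9 genes was not tested.

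The receptors' partners and relatives were read from lists chosen around the 9 genes, and edgeR called 0 genes in each of these 9 lists. DESeq2, which called 5.07% of all genes, called 2 of 16 other liver factors, 1 of 4 C/EBP relatives, 2 of 31 other nuclear receptors, 0 of 14 coregulators and 1 of 12 HNF4A targets. It called 1 of 9 C/EBP-alpha and FOXA targets, 1 of 10 FXR-induced genes, 0 of 3 genes repressed through FXR and SHP, and 7 of 31 PXR and CAR targets. Of 33 other nuclear receptors 31 were tested; 1 had an unadjusted p under 0.05 as higher and 7 as lower, against 9.37% and 10.3% of all genes, and the median log2 fold change was -0.16. It lay between -0.31 (control replicate 1 left out) and -0.12 (control replicate 3 left out) over single libraries left out. With libraries scaled by their totals alone that median was -0.020, against 0.13 for all genes. Rxra, the partner of FXR, PXR and CAR, measured 176.8 ± 18.5 CPM in AL/NP livers, against 147.6 ± 1.65 CPM in controls (SD, n = 3 each), at 0.26 (adjusted p = 0.340, edgeR), or 0.17 when AL/NP replicate 1 was left out. Among the lowest p-values were those of Thrb, a thyroid hormone receptor, at -0.91 (adjusted p = 0.0909), and Nr2c2 at -0.52 (adjusted p = 0.144), both by edgeR. Thrb measured 11.5 ± 1.98 CPM with AL/NP against 21.6 ± 2.01 CPM in controls, and its groups did not overlap. Nr2c2 overlaps Mrps25 on the opposite strand, which had 151.8 counts per 100 of Nr2c2. Ppara, the receptor of fasting and fatty acid oxidation, was at -0.75 (7.63 ± 0.427 CPM with AL/NP, 12.8 ± 3.29 CPM in controls; adjusted p = 0.147, edgeR).

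Coregulators, the proteins that nuclear receptors recruit to switch genes on or off, lay almost all on 1 side. Of 14 tested, 13 had a log2 fold change below 0, with a median of -0.41. At an unadjusted p under 0.05 by edgeR there were 6, all lower, against 10.3% of all genes. The groups did not overlap in 9, all lower, against 15% of all genes tested. Ncoa2, a coactivator, measured 16.55 ± 3.20 CPM with AL/NP against 25.45 ± 2.01 CPM in controls (log2 fold change -0.62, adjusted p = 0.144, edgeR). Crebbp, an acetyltransferase, was at -0.45 (19.5 ± 0.618 against 26.7 ± 1.64 CPM; adjusted p = 0.147), and Tbl1xr1, a corepressor subunit, at -0.47 (20.0 ± 2.06 against 27.7 ± 2.89 CPM; adjusted p = 0.165).

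Among 16 other liver-enriched transcription factors, 11 lay below 0 with a median of -0.17; 4 had an unadjusted p under 0.05 as lower and 1 as higher, against 10.3% and 9.37% of all genes. The median was -0.014 when AL/NP replicate 1 was left out. Klf15, a factor of amino acid and glucose metabolism, measured 33.55 ± 7.47 CPM with AL/NP against 69.9 ± 15.1 CPM in controls (log2 fold change -1.06, adjusted p = 0.103 in edgeR). Hnf4g, the close relative of Hnf4a, measured 0.432 ± 0.134 CPM with AL/NP against 1.37 ± 0.326 CPM in controls (-1.65, adjusted p = 0.118, edgeR). Hnf4g counts were low, at 8, 18 and 18 in AL/NP libraries and 36, 61 and 45 in controls. Prox1 was at -0.58 (adjusted p = 0.251), or -0.34 when AL/NP replicate 1 was left out. Onecut1 was at -0.49 (adjusted p = 0.734) and Nr5a2 at 0.02 (adjusted p = 0.975), both by edgeR; the sign of each turned when single libraries were left out. Onecut1 measured 0.626, 3.55 and 6.99 CPM in AL/NP libraries, against 3.36, 3.20 and 9.29 CPM in controls, so single libraries set its value.

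The C/EBP relatives of Cebpa lay on the other side of 0, with all 4 tested genes above it and a median of 0.97. Leaving out AL/NP replicate 1 brought that median to 0.17. Cebpd, which is induced in the acute phase response, measured 6.81 ± 1.04 CPM with AL/NP against 2.05 ± 0.661 CPM in controls (log2 fold change 1.73, SE 0.277, adjusted p = 0.0783 in edgeR). It overlaps Spidr on the opposite strand, which had 92.9 counts per 100 of Cebpd. Cebpb measured 94.9, 43.1 and 25.65 CPM in AL/NP libraries against 35.5, 31.0 and 27.6 CPM in controls, and was at 0.80 (adjusted p = 0.311), or 0.13 without AL/NP replicate 1. Ddit3, the stress-induced relative, was at 1.13 (adjusted p = 0.340), or 0.13 without AL/NP replicate 1. The overlapping genes Tmem189 and Mars lie opposite Cebpb and Ddit3.

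**Figure D4:**
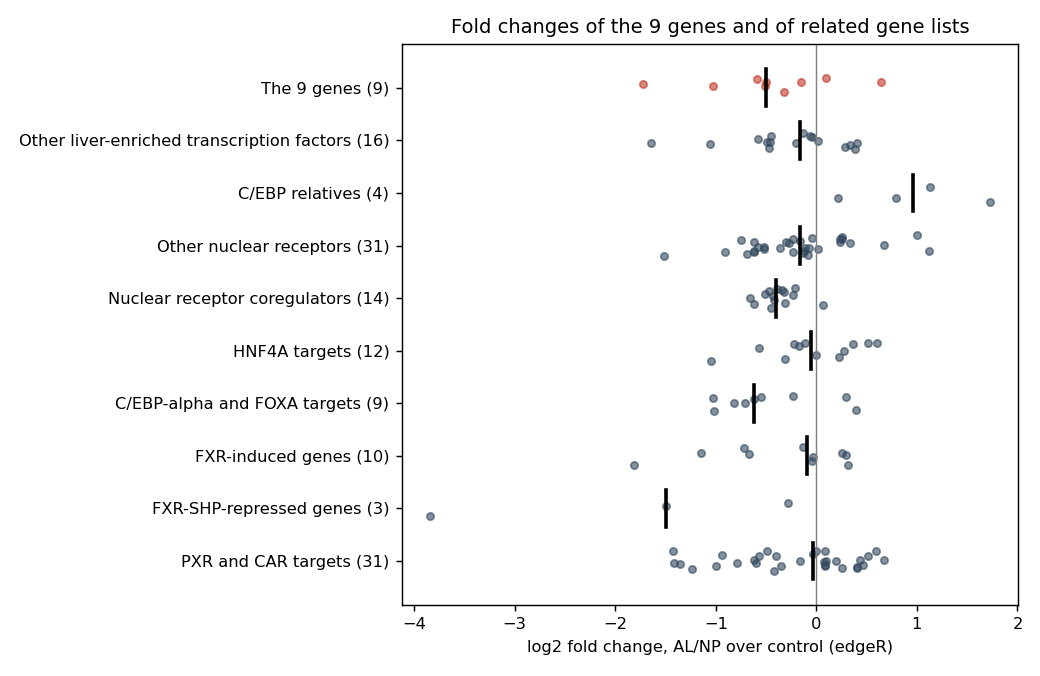
Log2 fold change of AL/NP over control (horizontal axis) for the 9 genes and for each tested gene of 9 related lists (points; number tested in brackets); vertical placement within a row is arbitrary and black bars are medians. The 9 genes have a median of -0.50 and coregulators one of -0.41, while HNF4A targets and PXR and CAR targets centre near 0.

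Known targets of the receptors were read next, since a receptor's messenger level and its activity are different quantities. Of 31 PXR and CAR targets, 15 lay above 0 and 16 below, with a median of -0.03 (-0.19 when AL/NP replicate 3 was left out). With library totals that median was 0.065, below the 0.13 of all genes under that scaling. At an unadjusted p under 0.05 by edgeR there were 2 higher and 7 lower, against 9.37% and 10.3% of all genes. Cyp2b10, the usual CAR target, measured 22.3, 16.6 and 42.3 CPM in AL/NP libraries against 23.0, 33.7 and 26.25 CPM in controls, at -0.03 (SE 0.321; adjusted p = 0.965, edgeR). Its sign turned with single libraries, at 0.22 when AL/NP replicate 2 was left out and -0.51 when AL/NP replicate 3 was. Cyp3a11, the usual PXR target, was at 0.20 (807 ± 36.2 CPM with AL/NP, 703.4 ± 137 CPM in controls; adjusted p = 0.571, edgeR), or 0.045 when control replicate 3 was left out and 0.31 when control replicate 1 was. The lowest p-values of the list were those of Abcc4, an exporter, at -1.24 (adjusted p = 0.0579), Cyp3a25 at -1.43 (adjusted p = 0.0903) and Gstm2 at -0.99 (adjusted p = 0.121), by edgeR. Abcc4 measured 4.32 ± 0.0754 CPM with AL/NP against 10.2 ± 1.03 CPM in controls, and Cyp3a25 84.0 ± 10.6 against 226.1 ± 84.5 CPM. Cyp2b, Cyp3a and Gstm genes have near-identical relatives, so the split of reads among them is uncertain.

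Of 10 tested FXR-induced genes, 7 lay below 0, with a median of -0.09 (-0.19 when control replicate 1 was left out). With library totals that median was 0.038, below the 0.13 of all genes under that scaling. Slc51b, a bile acid exporter subunit, measured 0.656 ± 0.213 CPM with AL/NP against 2.34 ± 1.23 CPM in controls (log2 fold change -1.81, adjusted p = 0.126, edgeR). Its counts were low, at 12, 30 and 25 in AL/NP libraries and 53, 63 and 121 in controls. Slc51b overlaps Rasl12 on the opposite strand, which had 30.6 counts per 100 of Slc51b. Abcc2, a canalicular pump, was at -0.67 (adjusted p = 0.189), and Baat, which joins bile acids to taurine, at -0.72 (adjusted p = 0.228), or -0.44 when control replicate 3 was left out. Abcb11, the bile salt export pump, measured 51.3, 58.3 and 65.0 CPM in AL/NP libraries against 72.6, 64.4 and 250.2 CPM in controls. Its log2 fold change of -1.15 (adjusted p = 0.254, edgeR) was -0.24 without control replicate 3.

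Cyp7a1, the rate-limiting enzyme of bile acid synthesis, and Cyp8b1 are repressed by SHP. Cyp7a1 had 1, 3 and 17 counts in AL/NP libraries and 5, 17 and 275 counts in controls, so its log2 fold change of -3.84 (adjusted p = 0.241, edgeR) rested on control replicate 3 and was -0.56 without it. Cyp8b1 measured 1.495, 2.92 and 3.66 CPM in AL/NP libraries against 0.976, 10.03 and 11.9 CPM in controls, at -1.50 (adjusted p = 0.306, edgeR). Slc10a1, the bile acid uptake transporter, was at -0.28 (adjusted p = 0.359), or -0.17 when AL/NP replicate 1 was left out. All 3 lay below 0, as did Nr0b2 itself, and in none did the groups stand apart without overlap.

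HNF4A targets were split, with 5 of 12 above 0 and a median of -0.06. The sign of that median turned when control replicate 3 was left out (0.047) and when AL/NP replicate 3 was (0.018). With library totals it was 0.094, below the 0.13 of all genes under that scaling. Otc, a urea cycle enzyme, measured 78.9 ± 1.98 CPM with AL/NP against 163 ± 43.9 CPM in controls (log2 fold change -1.05, adjusted p = 0.0962, edgeR), and Cyp2d22 was at -0.57 (adjusted p = 0.171). Mttp, which loads lipid onto apolipoprotein B, was at 0.51 (290.9 ± 32.9 CPM with AL/NP, 203.7 ± 57.5 CPM in controls; adjusted p = 0.250), or 0.32 when control replicate 3 was left out. Of 9 targets of C/EBP-alpha and FOXA proteins, 7 lay below 0 with a median of -0.62. Alb, Ttr and Cps1 of this list were also among the hepatocyte markers, as was Apob of the HNF4A targets. The medians of these target lists and of the markers are therefore not separate observations. Ttr, the transthyretin gene, measured 3671 ± 361 CPM with AL/NP against 6489 ± 1181 CPM in controls (-0.82, adjusted p = 0.140, edgeR). Tat, a tyrosine-degrading enzyme, was at -0.71 (adjusted p = 0.253), or -0.47 when AL/NP replicate 2 was left out, and Pck1, of glucose synthesis, at -1.02 (adjusted p = 0.268), or -0.54 without control replicate 2.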

How the data were processed

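Per the labels' protocols, RNA from fresh frozen liver pieces was selected for poly(A), made into libraries with a strand-marking kit and read in paired ends. The authors deposited whole-number counts per Ensembl gene, not normalized, as the values show. Per the submitters' processing notes, they used GRCm38, STAR 2.6.1a, featureCounts and DESeq2 1.26.0; strand setting, annotation release and treatment of multiple matches are not given in the sources used here. Symbols, coordinates and exon lengths came from GENCODE M21 (GRCm38), promoters from RefSeq (GRCm38.p6; all 9 genes matched).

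Groups were compared in R 4.3.3 with edgeR 4.0.16 (TMM, filterByExpr with a minimum count of 10, robust quasi-likelihood test), with Benjamini-Hochberg adjustment over 15939 genes and a threshold of 0.05. SE is the absolute log2 fold change over the square root of F. Alternatives included DESeq2 1.42.0 and limma-voom (limma 3.58.1). The edgeR step was tested on simulated data. A count of 3 corresponded to 0.0826 to 0.104 CPM, for counting error only. No pair of libraries looked like a duplicate (lowest chi-square per degree of freedom 30.6).

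The 9 genes, the related lists and 12 genes reported whatever their values were chosen with earlier results of these data known. Named besides these were, in each list, the called genes and the 3 with the lowest p-values, and the nearest profile of each of the 9. Some genes that this rule names are not reported here. Tomm40l and the other overlapping genes, Alb, Apob, Cps1, Spp1 and the untested genes were added after their values were seen.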

Additional observations from a re-analysis of the deposited data

How the results depend on the processing

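Under 15 alternatives edgeR or limma-voom called 0 of the 9 genes throughout, and DESeq2 called 2. The count of non-overlapping genes among the 9 was 2 when libraries were scaled by their totals alone, which put the median over all genes at 0.13. It was 5 or 6 in the other settings where it was counted. The share of all genes without overlap was counted only in the main fit (29.5%), so these counts have no share beside them. With a library left out fewer values are compared, and non-overlap comes more easily. Over all genes the call count was 0 with library totals, 0 with at least 50 counts in 3 libraries, 0 without robust estimation, 747 with no filter beyond 1 count, 844 with DESeq2, and 0 to 4 with a library left out, where fewer samples entered the fit; these compare with 13. At an unadjusted p under 0.05 the settings that gave 0 called between 2254 and 3133 genes, among them 2328 without AL/NP replicate 2, 2880 without AL/NP replicate 3, 2461 when control replicate 2 was left out and 3022 when control replicate 3 was. The median of the 9 genes lay between -0.61 and -0.17. The replicate block gave 23 calls and 0 among the 9; same-numbered libraries had correlations of deviations of -0.05, 0.04 and 0.08, and AL/NP replicate 1 correlated best with control replicate 2, so numbers were not taken as pairs.

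Signs turned in 7 of the named genes. Foxa1 ranged from -0.11 (without AL/NP replicate 3) to 0.35 over libraries left out, and Foxa2 from -0.33 to 0.089 (without AL/NP replicate 1), with 0.027 under library totals. Onecut1 ranged from -1.32 to 0.19 (without control replicate 3). Nr5a2 ranged from -0.20 (without AL/NP replicate 3) to 0.23, with -0.014 when AL/NP replicate 2 was left out, -0.064 when control replicate 3 was, -0.022 under the replicate block and -0.014 under limma-voom. Cyp2b10 ranged from -0.51 to 0.22 (without AL/NP replicate 2), with 0.091 when AL/NP replicate 1 was left out, 0.12 when control replicate 2 was, and 0.12 under library totals. Acot6 ranged from -0.13 (without AL/NP replicate 3) to 0.33, and Sh3bp1 from -0.27 to 0.066 (without AL/NP replicate 1), with 0.022 under library totals. The cause was not tested. Nr1i3, Nr0b2, Nr1i2, Nr1h4, Hnf4a, Cebpa and Foxa3 kept their sign in these 15 alternatives.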

Other observations

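Of the related genes, 4 were too low to test. Nr0b1, the relative of Nr0b2, and Slc51a, the partner subunit of Slc51b, had 0 counts in all 6 libraries. Vdr, the vitamin D receptor gene, had 0, 13 and 2 counts in AL/NP replicates 1 to 3 and 8, 1 and 4 counts in the controls. Cebpe, a C/EBP gene of granulocytes, had 2, 3 and 6 counts in AL/NP libraries and 1, 1 and 3 counts in controls. No difference in Vdr or Cebpe was detectable at this depth.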
